A study of Mus musculus with 48 samples.

Results

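The comparison of either antidepressant with vehicle in WT amygdala took in 24 of the 48 libraries of the series, all chosen by label. They came from 8 female WT mice given imipramine (IMN, 10 mg/kg), 8 given fluoxetine (FLX, 5 mg/kg) and 8 given vehicle, and the 16 drug libraries were set together against the 8 vehicle libraries. Per the study's methods the mice were 8 to 11 weeks old, were WT littermates of *Brd1*+/- mice on a C57BL/6NTac background, were injected under the skin on consecutive days, and had all been through a tail suspension, an open field and a forced swim test, the swim shortly before the brain was taken. The vehicle mice therefore shared the injections and the swim, with saline in place of drug. The other 24 mice of the series, which have 1 working copy of *Brd1*, had received the same 3 treatments. The numbers by which the mice were coded fell into 2 blocks, a low one for all vehicle mice and a high one for all IMN and FLX mice, with no vehicle code in the span of the drug codes. The treatment and whatever separates the code ranges cannot be told apart in these data. The comparison asked which genes differed from vehicle in the same direction under both drugs.

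IMN is a tricyclic antidepressant and FLX a selective serotonin reuptake inhibitor, and both block the reuptake of monoamines into nerve endings. Neurons that fire strongly switch on a set of immediate-early genes within minutes, among them the transcription factors of the *Fos*, Egr and Nr4a families, *Npas4*, and synaptic genes such as *Arc* and *Homer1*. *Fos* is the usual marker of recent activity in the amygdala, a region that processes threat. Stress also releases glucocorticoids, whose receptor raises the transcription of genes such as *Ddit4*, *Sgk1*, *Plin4*, *Cdkn1a* and *Tsc22d3* in brain cells.

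Many immediate-early genes are switched on by the factor CREB, which binds the letters TGACG, the half-site of the cyclic AMP response element (CRE). The 250 bases before the start of *Nr4a1*, *Egr4* and *Fos* are shown since *Nr4a1* and *Egr4* were among the genes whose means were lower under each drug and *Fos* is the usual activity marker. *Nr4a1* has several starts, and the stretch shown precedes one inside the span of the gene. They are RefSeq sequences on build GRCm38.p6, read along the strand of the gene, at chr15:101266596-101266845 (plus strand, *Nr4a1*), chr6:85513590-85513839 (minus strand, *Egr4*) and chr12:85473640-85473889 (plus strand, *Fos*), and capitals mark TGACG or its reverse complement CGTCA.
Nr4a1: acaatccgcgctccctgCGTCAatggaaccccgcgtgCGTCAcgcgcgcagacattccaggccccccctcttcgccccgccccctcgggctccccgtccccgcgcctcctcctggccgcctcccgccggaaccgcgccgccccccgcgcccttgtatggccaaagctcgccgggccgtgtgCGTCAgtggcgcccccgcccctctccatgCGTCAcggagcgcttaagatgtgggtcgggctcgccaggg
Egr4: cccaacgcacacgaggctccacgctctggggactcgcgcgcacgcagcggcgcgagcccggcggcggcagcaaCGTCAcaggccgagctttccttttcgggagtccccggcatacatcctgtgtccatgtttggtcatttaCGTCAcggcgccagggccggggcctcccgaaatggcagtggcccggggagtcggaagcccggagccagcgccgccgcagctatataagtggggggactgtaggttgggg
Fos: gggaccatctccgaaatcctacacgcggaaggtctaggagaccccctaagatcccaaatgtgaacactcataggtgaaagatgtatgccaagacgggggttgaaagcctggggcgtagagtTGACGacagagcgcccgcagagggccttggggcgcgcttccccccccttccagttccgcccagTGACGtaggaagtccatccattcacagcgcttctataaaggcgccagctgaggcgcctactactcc
The half-site occurred 4 times before *Nr4a1*, 2 times before *Egr4* and 2 times before *Fos*. Of 38 RefSeq starts belonging to 28 of the 36 immediate-early genes listed, 25 (65.8%) held it within 250 bases on either strand, against 17.7% of all 32817 starts. The CArG box, bound by serum response factor and free of overlap with TGACG in its letters, was found at 5 of the 38 (13.2%), against 1.47% of all starts. These matches describe the sequences and do not show that a factor was bound.

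The unit is TPM, which scales a gene's reads by transcript length and by the total of the library, and which keeps no record of depth and allows no counting interval. The lowest total over the 24 libraries was 999524 TPM and the highest 999751, a library held from 23464 to 25611 genes above 0, and no 2 libraries held identical values. The punches differed in what tissue they held. *Ttr*, the transthyretin gene that marks choroid plexus, reached 28369 TPM in vehicle replicate 1, 8383 in FLX replicate 2 and 1193 in IMN replicate 1, while the medians were 8.64, 6.42 and 3.40 TPM in the 3 groups. The glutamate transporter gene *Slc17a7* ranged from 6.56 to 1346 TPM in vehicle mice with a median of 478, from 6.16 to 1246 in IMN mice with a median of 42.7, and from 3.42 to 739 in FLX mice with a median of 42.0. *Pmch*, a neuropeptide gene of the lateral hypothalamus, was listed at 0 in 6 of 8 vehicle libraries and reached 5702 TPM in 1 IMN library. More cells of a type and more RNA per cell cannot be told apart in such punches. The median library of each drug held more oligodendrocyte and hypothalamic marker transcripts and less *Slc17a7* than the median vehicle library. The ranges of the groups overlapped.

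**Figure D1:**
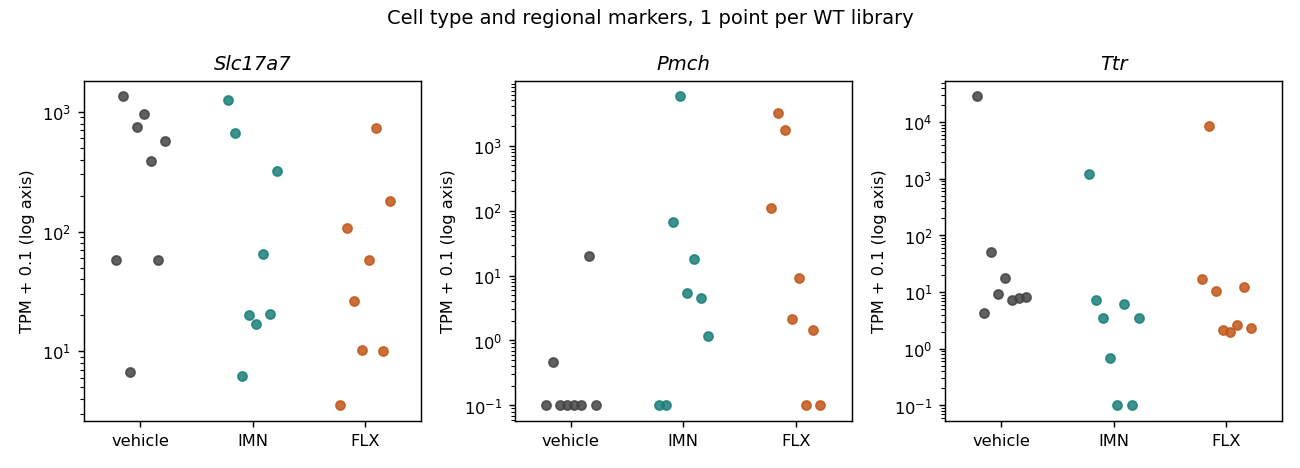
Levels of 3 marker genes (TPM + 0.1, log axis) in each WT library by treatment group, 1 point per library in replicate order: *Slc17a7* (glutamate neurons), *Pmch* (hypothalamus) and *Ttr* (choroid plexus). *Slc17a7* spans 6.56 to 1346 TPM within the vehicle group alone, and 3 libraries, 1 in each group, exceed 1000 TPM of *Ttr*.

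No gene passed the adjusted test. Of 25085 genes tested with limma, 0 had a Benjamini-Hochberg adjusted p under 0.05 for either drug against vehicle (0%), and so 0 were moved alike by both drugs under the full rule. The smallest adjusted p was 0.0834. At an unadjusted p under 0.05 there were 2995 genes, 11.9% of those tested, of which 1708 (6.81%) were higher and 1287 (5.13%) lower with drug, against 1254 that the threshold alone would give. At an unadjusted p under 0.01 there were 762 (3.04%), against 251. Each drug taken alone, against the same 8 vehicle libraries, had an unadjusted p under 0.05 in the same direction for 669 genes (2.67%), 344 higher (1.37%) and 325 lower (1.3%); since the vehicle libraries are shared, this count is not independent agreement between drugs. That count was 1257 without vehicle replicate 1, 1126 without IMN replicate 1 and 400 without IMN replicate 4, and it was lower still without IMN replicate 3. Multi-exon protein-coding genes made up 66.3% of the 344 and 71.4% of the 325, against 59.7% of all genes tested. The number of genes called was sensitive to single libraries. It was 8 without IMN replicate 1, 1 without each of FLX replicate 4, IMN replicate 8 and vehicle replicates 3, 4 and 8, and 0 without any other single library. With the 3 Ttr-rich libraries left out together it was 16, of which 13 were higher with drug, among them *Plin4*, *Rcan2*, *Sgk1*, *Ddit4* and *Acot11*, and 3 were lower, among them *Npas4*. The genes named next had the smallest p-values among those with an unadjusted p under 0.05 for each drug, up to 12 in each direction. Their higher group had to average at least 1 TPM, which left out *Gm10344*, the gene with the smallest unadjusted limma p (4.88e-06). Further members of the gene lists, outside this rule, are also described. None of these genes passed the adjusted test on all 24 libraries.

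*Ddit4*, whose product restrains mTORC1 signalling and whose transcription is raised by glucocorticoids and by energy stress, was the single gene of 25085 tested for which every drug library exceeded every vehicle library (0.00399%), and no gene had every drug library below. It lies on GRCm38 chromosome 10, 59949669 to 59951834, minus strand (ENSMUSG00000020108). The vehicle libraries ran from 52.6 to 63.3 TPM with a median of 57.2. The IMN libraries ran from 74.7 to 144.8 TPM with a median of 83.5, and the FLX libraries from 65.6 to 128 TPM with a median of 91.4. The vehicle mice thus sat close together, with an SD of 3.67 TPM about a mean of 57.0, and the drug mice were both higher and more scattered, with means of 98.8 ± 29.5 (IMN) and 93.6 ± 20.9 (FLX) TPM (SD, n = 8 each). The log2 difference of either drug from vehicle was 0.71 ± 0.13 (SE), with a limma adjusted p of 0.0834. IMN alone differed from vehicle by 0.74 ± 0.15 and FLX alone by 0.69 ± 0.15, and the drugs differed from each other by -0.06. With the levels of the striatal, hypothalamic, oligodendrocyte and choroid plexus marker lists as covariates the difference was 0.58.

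*Plin4*, a lipid droplet coat protein gene and a glucocorticoid target, had means of 4.56 ± 3.72 TPM with vehicle, 16.1 ± 11.4 with IMN and 19.8 ± 9.29 with FLX (SD). It lies on chromosome 17, 56100591 to 56109803, minus strand, and overlaps exons of *Hdgfl2* on the other strand. Its vehicle libraries ran from 1.81 to 13.1 TPM with a median of 3.44, its IMN libraries from 2.65 to 31.5 with a median of 13.7, and its FLX libraries from 6.77 to 31.5 with a median of 22.1. The one vehicle library above 10 was replicate 1, the library richest in *Ttr*, and 9 of 16 drug libraries exceeded it. The log2 difference was 1.94 ± 0.42 (SE) with a limma adjusted p of 0.175, and it was 1.096 with the marker lists as covariates and 2.31 without the 3 Ttr-rich libraries, where the adjusted p was 0.0232.

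Of the glucocorticoid and CRH list, 3 genes besides *Ddit4* and *Plin4* had a p under 0.05 for each drug in the same direction. *Sgk1*, a kinase gene induced by glucocorticoids and also active in oligodendrocytes, ran from 42.2 to 323 TPM with vehicle (median 81.6), from 81.0 to 433 with IMN (median 150.0) and from 89.8 to 354.4 with FLX (median 218). The groups overlapped, and vehicle replicate 1, at 323 TPM, stood far above the other vehicle libraries. The log2 difference was 1.16 ± 0.32 (SE). *Cdkn1a*, a cell cycle inhibitor gene, had medians of 27.0, 32.8 and 42.4 TPM with vehicle, IMN and FLX, and 12 of 16 drug libraries exceeded the highest vehicle library, 30.6 TPM. Its log2 difference was 0.53 ± 0.14 (SE). *Crh*, the corticotropin-releasing hormone made by neurons of the central amygdala and the hypothalamus, had medians of 5.14, 9.35 and 17.1 TPM and a log2 difference of 1.94 ± 0.63 (SE), with 1 vehicle library listed at 0. The limma adjusted p was 0.248 for *Sgk1*, 0.244 for *Cdkn1a* and 0.296 for *Crh*. Over the whole list of 19 genes, 6 were higher and 1 was lower at an unadjusted p under 0.05 (31.6% and 5.26%, against 6.81% and 5.13% of all genes), 0 passed the adjusted test, and the median log2 difference was 0.20 against 0.02 over all genes. That median was 0.11 without vehicle replicate 3 and 0.32 without vehicle replicate 5. With the marker lists as covariates 5 were higher and 0 lower, and the median was 0.13. Among the marker lists, 12 of 12 oligodendrocyte and 6 of 15 hypothalamic markers were also higher with drug at that threshold, with summed levels of 2138, 3639 and 6331 TPM and of 20.1, 46.1 and 177 TPM in the median vehicle, IMN and FLX library. The member lower at that threshold was *Per1*, at 62.3 ± 8.81 TPM with vehicle and 53.5 ± 8.88 TPM with drug (SD). The receptor genes themselves had log2 differences of -0.11 ± 0.12 for *Nr3c1*, the glucocorticoid receptor, and -0.32 ± 0.17 for *Nr3c2*, the mineralocorticoid receptor (SE). *Tsc22d3*, which is a widely used glucocorticoid target, had a log2 difference of 0.38 ± 0.29 (SE) and an unadjusted limma p of 0.199. For *Fkbp5*, 6 of 16 drug libraries lay below and 7 above every vehicle library. The log2 difference was below 0 for 6 of the 19 genes on the list.

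**Figure D2:**
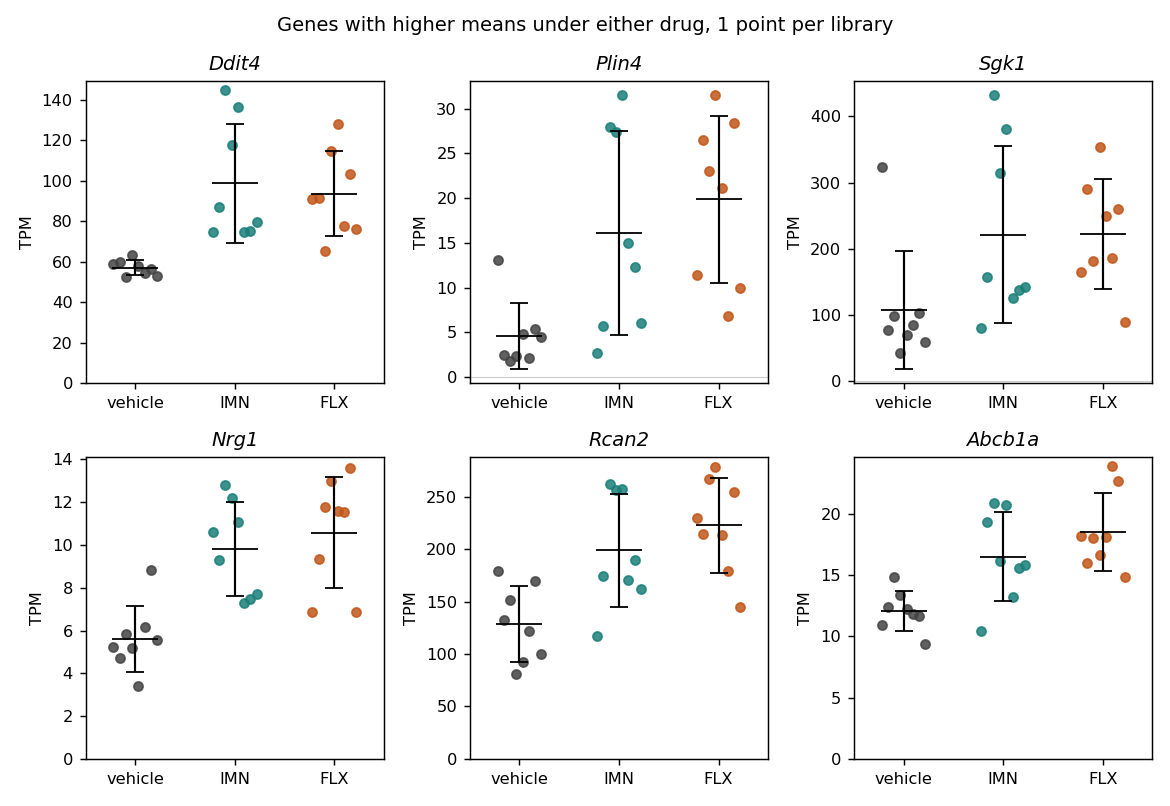
TPM of 6 genes with higher means under either drug, by treatment group in WT mice, 1 point per library in replicate order, with the mean (bar) and SD (whiskers). The 16 drug libraries of *Ddit4* all lie above the 8 vehicle libraries, which span 52.6 to 63.3 TPM, while the other 5 genes overlap between groups, and 1 vehicle library of *Sgk1* reaches 323 TPM.

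The other genes named for higher means were of varied function. *Nrg1*, which encodes a growth factor for ErbB receptors, ran from 3.40 to 8.82 TPM with vehicle (median 5.39), from 7.30 to 12.8 with IMN (median 9.96) and from 6.85 to 13.6 with FLX (median 11.6). Of its 16 drug libraries 11 exceeded every vehicle library. The log2 difference was 0.85 ± 0.16 (SE) with a limma adjusted p of 0.0936. *Abcb1a*, the P-glycoprotein pump that removes many drugs at the blood-brain barrier, had 13 of 16 drug libraries above the highest vehicle library, 14.8 TPM, with medians of 12.03, 15.95 and 18.1 TPM. Its log2 difference was 0.52 ± 0.12 (SE). *Atp5mpl*, a small subunit of mitochondrial ATP synthase, had 14 of 16 above the highest vehicle value of 257 TPM and a log2 difference of 0.36 ± 0.07 (SE).

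Several act in energy metabolism or in astrocytes. *Pygm*, a glycogen phosphorylase, had medians of 13.4, 18.3 and 25.5 TPM with vehicle, IMN and FLX. *Ogdhl*, a mitochondrial dehydrogenase subunit, had medians of 61.9, 77.3 and 90.6 TPM. *Ntsr2*, a neurotensin receptor found mainly on astrocytes, had medians of 70.6, 92.3 and 111 TPM, and *Acot11*, an acyl-CoA thioesterase, 16.9, 22.2 and 28.4 TPM. In each of the 4 the FLX median was the highest and the IMN median lay between. The log2 differences of either drug from vehicle were 0.73 ± 0.16 for *Pygm*, 0.44 ± 0.10 for *Ogdhl*, 0.51 ± 0.12 for *Ntsr2* and 0.54 ± 0.12 for *Acot11* (SE), each with a limma adjusted p of 0.175. With the marker lists as covariates those of *Ogdhl*, *Ntsr2* and *Acot11* were 0.22, 0.30 and 0.32. *Rcan2*, a calcineurin regulator, had medians of 127.3, 182 and 222 TPM and a log2 difference of 0.72 ± 0.16 (SE), which was 0.27 with the covariates. *Mapre2*, which encodes a protein that binds microtubule ends, differed by 0.62 ± 0.14 (SE), yet none of its drug libraries exceeded the highest vehicle library, 205 TPM. Its vehicle libraries were spread from 74.0 TPM upwards, while the FLX libraries lay between 161 and 189. *Galnt15*, a glycosyltransferase gene, was low throughout, with means of 1.72, 2.82 and 3.01 TPM, and its log2 difference of 0.75 ± 0.17 (SE) was 0.47 with the covariates. *Nrg1*, *Plin4*, *Abcb1a* and *Acot11* overlap genes on the other strand, and since the use of strand in counting is not stated, reads of the partner cannot be told apart.

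Immediate-early genes had mostly lower means with drug. Of the 36 listed and tested, 22 were lower and 1 was higher at an unadjusted p under 0.05, which is 61.1% lower against 5.13% of all genes, and 15 were lower under each drug against 1.3%. None passed the adjusted test on all 24 libraries. The mean was lower with drug for 32 of the 36, and the median log2 difference was -0.89, with -0.83 under IMN and -0.92 under FLX against the same vehicle mice. The exception at that threshold was *Maff*, at 2.75 ± 0.62 TPM with vehicle and 4.21 TPM on average with drug. The 36 include *Junb*, which was listed at 0 in most libraries. With one library at a time left out, 35 or 36 of the list were tested. Between 18 and 28 were lower at an unadjusted p under 0.05, and the median stayed between -0.99 and -0.78. With the striatal, hypothalamic, oligodendrocyte and choroid plexus marker levels as covariates 7 of the 36 were lower at an unadjusted p under 0.05 and the median was -0.24. The summed level of the list had medians of 1093, 562 and 533 TPM with vehicle, IMN and FLX. The medians of *Slc17a7* were 478, 42.7 and 42.0 TPM and those of the summed oligodendrocyte markers 2138, 3639 and 6331 TPM. For *Slc17a7* only 2 of 16 drug libraries lay below every vehicle library, and its unadjusted limma p was not under 0.05. The covariates included the oligodendrocyte list but not *Slc17a7*. A link between the oligodendrocyte level and the immediate-early list was not tested beyond that fit, and for *Slc17a7* it was not tested.

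*Npas4*, a neuron-specific transcription factor gene that responds to calcium entry, had the smallest p of the list. It lies on chromosome 19, 4984355 to 4990316, minus strand (ENSMUSG00000045903). The vehicle libraries ran from 9.88 to 31.2 TPM with a median of 13.3, the IMN libraries from 3.92 to 14.4 with a median of 6.78, and the FLX libraries from 5.84 to 9.71 with a median of 7.68. Of the 16 drug libraries 15 lay below every vehicle library, and the exception was IMN replicate 1, at 14.4 TPM. The log2 difference was -1.02 ± 0.19 (SE), with a limma adjusted p of 0.106, and it was -0.71 with the marker lists as covariates. Without IMN replicate 1 *Npas4* passed the adjusted test, as it did without the 3 Ttr-rich libraries, where the adjusted p was 0.0232.

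Among the transcription factor genes, *Egr1* (chromosome 18, 34859823 to 34864984, plus strand) ran from 75.2 to 144 TPM with vehicle, from 18.2 to 107 with IMN and from 27.5 to 81.8 with FLX, with medians of 119.9, 54.7 and 51.2 TPM. In *Nr4a1* (chromosome 15, 101254269 to 101274795, plus strand), an orphan nuclear receptor gene with 4 CRE half-sites in the stretch printed above, the medians were 64.2, 29.2 and 32.8 TPM. *Egr1* lay below every vehicle library in 11 of 16 drug libraries and *Nr4a1* in 10 of 16. Their log2 differences were -1.09 ± 0.25 and -1.02 ± 0.24 (SE), each with a limma adjusted p of 0.175. With the marker covariates these were -0.57 and -0.43. *Fosl2* (chromosome 5, 32135801 to 32157842, plus strand), an AP-1 subunit gene, had medians of 24.2, 10.3 and 12.7 TPM and a log2 difference of -1.05 ± 0.21 (SE), but only 4 of 16 drug libraries lay below the lowest vehicle library, replicate 3 at 9.15 TPM. Without that vehicle library *Fosl2* was the 1 gene called. *Egr4* had medians of 42.7, 17.8 and 13.6 TPM, with 13 of 16 drug libraries below every vehicle library, and a log2 difference of -1.62 ± 0.43 (SE). *Nr4a3* had medians of 31.4, 7.18 and 9.17 TPM and a log2 difference of -1.53 ± 0.39 (SE), and *Egr2* one of -1.71 ± 0.48 (SE). Of 16 drug libraries, only 2 lay below every vehicle library for *Nr4a3*, and 10 did for *Egr2*. IMN replicate 1 again stood near the vehicle mice for *Egr4*, with 44.4 TPM. This single library also held 1246 TPM of *Slc17a7*, the highest of its group, and was among the Ttr-rich libraries. A link between these values was not tested.

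Genes of the list that act outside transcription also had lower means. *Gadd45b*, which takes part in DNA demethylation and growth arrest, had medians of 23.4, 11.3 and 10.9 TPM and a log2 difference of -0.94 ± 0.22 (SE), which was -0.43 with the marker covariates. *Arc*, which controls the uptake of AMPA receptors at synapses, ran from 45.7 to 166 TPM with vehicle, from 20.6 to 86.4 with IMN and from 16.8 to 109 with FLX. Its medians were 85.2, 35.8 and 37.3 TPM, and 10 of 16 drug libraries lay below every vehicle library. The log2 difference of *Arc* was -1.21 ± 0.32 (SE) with a limma adjusted p of 0.244. *Dusp6*, a phosphatase gene that dampens ERK signalling, had a log2 difference of -1.02 ± 0.25, *Dusp5* one of -0.92 ± 0.28, *Homer1* one of -1.07 ± 0.34 and *Inhba*, an activin subunit, one of -1.04 ± 0.35 (SE). Among members with differences near 0 were *Jund* at -0.01 ± 0.08, *Trib1* at 0.01 ± 0.15 and *Klf2* at -0.07 ± 0.16 (SE). *Junb* could not be measured in the same way. It was listed above 0 in 5 of 8 vehicle libraries, at 64.5, 80.9, 80.4, 107 and 68.1 TPM, in 3 of 8 IMN libraries, at 46.3, 18.4 and 37.6 TPM, and at 0 in all other libraries, including all 8 with FLX. Since neurons generally transcribe this gene, a value of 0 may be a failed estimate, and no fold is given.

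**Figure D3:**
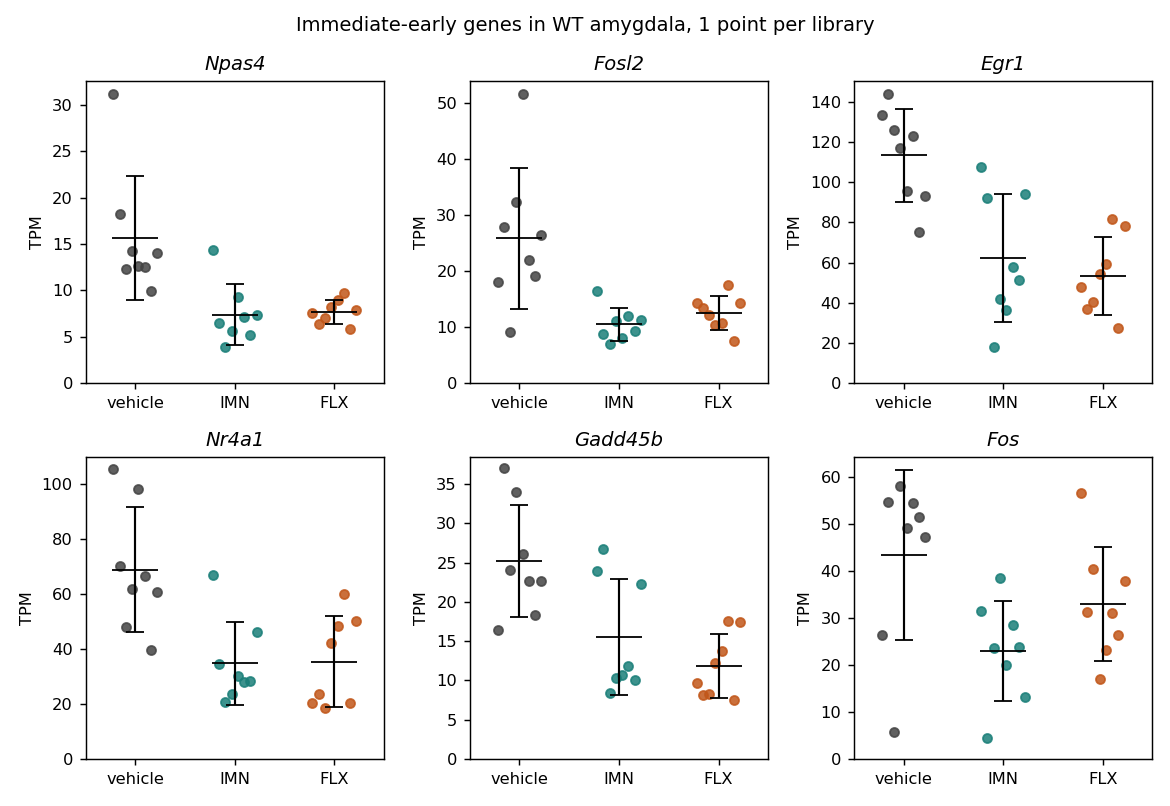
TPM of 6 immediate-early genes by treatment group in WT mice, 1 point per library in replicate order, with the mean (bar) and SD (whiskers). For *Npas4*, 15 of 16 drug libraries lie below the lowest vehicle library at 9.88 TPM, while for *Fos* the groups overlap, with vehicle replicate 3 at 5.79 TPM.

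*Fos* (chromosome 12, 85473890 to 85477273, plus strand) overlapped between the groups. The vehicle libraries ran from 5.79 to 58.1 TPM with a median of 50.4, the IMN libraries from 4.40 to 38.5 with a median of 23.7, and the FLX libraries from 17.1 to 56.6 with a median of 31.2. The means were 43.4 ± 18.1, 22.9 ± 10.6 and 33.0 ± 12.2 TPM (SD, n = 8 each). The log2 difference of either drug from vehicle was -0.56, and a two-sided exact permutation test over 735471 arrangements of 16 and 8 libraries gave p = 0.181. Vehicle replicate 3 stood at 5.79 TPM, with the next vehicle library at 26.4. Without it the log2 difference was -0.94 and the exact permutation p was 0.00737, so that 1 library decided the outcome of this test. Vehicle replicate 3 also held 12854 TPM of summed striatal markers, the highest of the vehicle group (median 1072 TPM). A link between that level and its *Fos* value was not tested. *Fosb*, the close relative of *Fos*, had a log2 difference of -0.89 ± 0.31 (SE), with a p under 0.05 for each drug. Only 1 of its 16 drug libraries lay below every vehicle library.

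Of the remaining genes named for lower means, 3 were multi-exon protein-coding genes with small and tight differences. *Tet3*, which oxidises methylated cytosine, ran from 16.7 to 22.5 TPM with vehicle, from 15.3 to 19.1 with IMN and from 14.3 to 18.2 with FLX. *Cbll1*, a ubiquitin ligase gene whose product joins the complex that methylates adenosine in mRNA, had medians of 15.1, 12.6 and 12.3 TPM, with 14 of 16 drug libraries below every vehicle library. It overlaps exons of *Gm29542* on the other strand, and reads of that gene cannot be told apart. *Tbl1xr1*, a part of the NCoR corepressor complex, had medians of 20.6, 16.03 and 14.1 TPM. The log2 differences were -0.28 ± 0.07, -0.29 ± 0.07 and -0.44 ± 0.10 (SE), each with a limma adjusted p of 0.175, and that of *Tbl1xr1* was -0.28 with the marker covariates. The others were noncoding or unplaced. *Gm43445*, inside an intron of *Lmo4*, had medians of 2.54, 1.08 and 0.629 TPM. *Gm24067*, a small nucleolar RNA gene that overlaps an exon of *Ppan* on the same strand, had medians of 6.67, 0.538 and 1.01 TPM, and reads of the host gene cannot be told apart from it. *Gm22300* was listed at 0 in 5 IMN and 5 FLX libraries and ran from 0.943 to 3.52 TPM with vehicle. *AC087559.2*, on the unplaced scaffold GL456350.1, was listed at 0 in 4 IMN and 7 FLX libraries and ran from 2.54 to 12.5 TPM with vehicle, and the size of its log2 difference depended on the pseudocount.

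**Figure D4:**
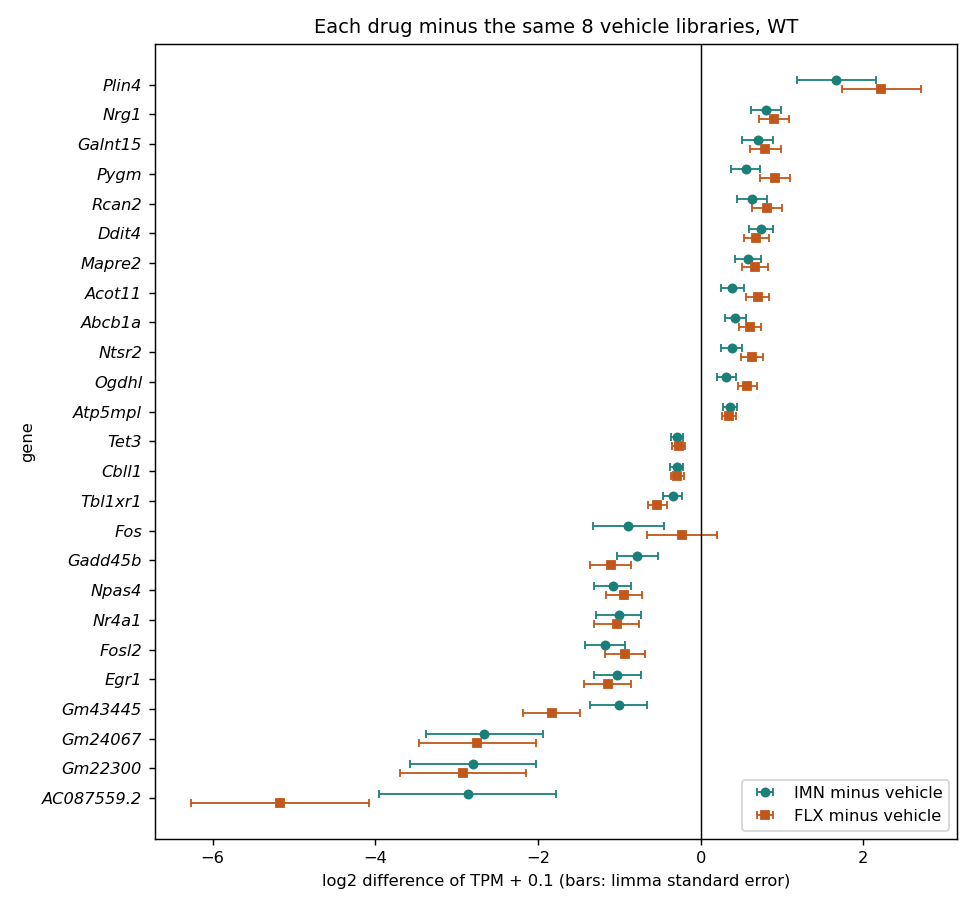
Log2 difference of IMN (circles) and FLX (squares) from the same 8 WT vehicle libraries for *Fos* and the genes named by the selection rule, on the scale of TPM + 0.1, with limma standard errors. Every gene but *Fos* was chosen for lying on the same side of 0 under both drugs, so the agreement of sides is set by the choice, and *Fos* shows -0.89 with IMN and -0.23 with FLX.

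Drug against drug gave no call. FLX minus IMN had 0 of 25085 genes called by limma (0%) and 1142 at an unadjusted p under 0.05 (4.55%), 1 called without IMN replicate 1 and 2 without FLX replicate 8. Against the same vehicle mice IMN had 0 genes called and 1339 at an unadjusted p under 0.05 (5.34%), and FLX had 1 called (0.00399%) and 3752 (15%). The gene called for FLX was *Gm10344*, named here after its values were seen, which was listed at 0 in all 8 vehicle libraries and reached at most 0.871 TPM with FLX and 0.354 TPM with IMN. The named genes differed between the drugs by log2 values of -0.06 for *Ddit4*, 0.10 for *Nrg1*, 0.14 for *Npas4*, -0.02 for *Nr4a1* and 0.55 for *Plin4*. A p that misses the threshold does not show that the drugs act alike, and the SE of each drug's difference from vehicle was 0.49 for *Plin4*.

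Over all genes 6.81% were higher and 5.13% lower at an unadjusted p under 0.05, and the lists of monoamine genes held 1 such member or none in each direction. Of 17 serotonin genes tested, 0 were higher and 1 was lower at an unadjusted p under 0.05, the receptor gene *Htr5b* at 2.23 ± 2.497 TPM with vehicle and 0.435 ± 0.566 (IMN) and 0.798 ± 0.730 (FLX) TPM with drug. *Slc6a4*, the serotonin transporter that FLX blocks, is made in cell bodies of the brain stem and was too low here to be tested. Of 17 noradrenaline and dopamine genes 1 was higher and 1 was lower, with *Adra1b*, an alpha-1 adrenergic receptor, at a log2 difference of 0.87 ± 0.29 (SE). Among 23 neurotrophin and CREB genes 2 were higher and 3 lower. *Creb1*, which encodes CREB itself, had the smallest p of that list, with means of 21.2 ± 4.19 TPM with vehicle, 15.5 ± 2.86 with IMN and 18.6 ± 2.63 with FLX (SD) and a log2 difference of -0.31 ± 0.11 (SE). *Camk2a*, the abundant forebrain kinase, differed by -1.01 ± 0.36 (SE), with medians of 677, 398 and 270.1 TPM. The medians of *Slc17a7* were 478, 42.7 and 42.0 TPM with overlapping groups, and a link between these genes was not tested. Of 18 circadian clock genes 5 were lower (27.8%, against 5.13% of all genes) and 0 higher, led by *Bhlhe40*, which is also activity-induced, at a log2 difference of -0.55 ± 0.19 (SE). That count was 2 without vehicle replicate 5 and 0 with the marker covariates. Cholesterol synthesis (1 higher and 3 lower of 24), heat shock (1 and 1 of 16), unfolded protein response (0 and 1 of 23) and structural noncoding RNA genes (0 and 1 of 11) held few such members. None of these lists had a member that passed the adjusted test, and the leading ones were *Mvd* at -0.40 ± 0.14, *Cryab* at 0.76 ± 0.27, *Creld2* at -0.25 ± 0.11 and *Mir124a-1hg* at -0.39 ± 0.17 (log2 difference, SE).

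**Figure D5:**
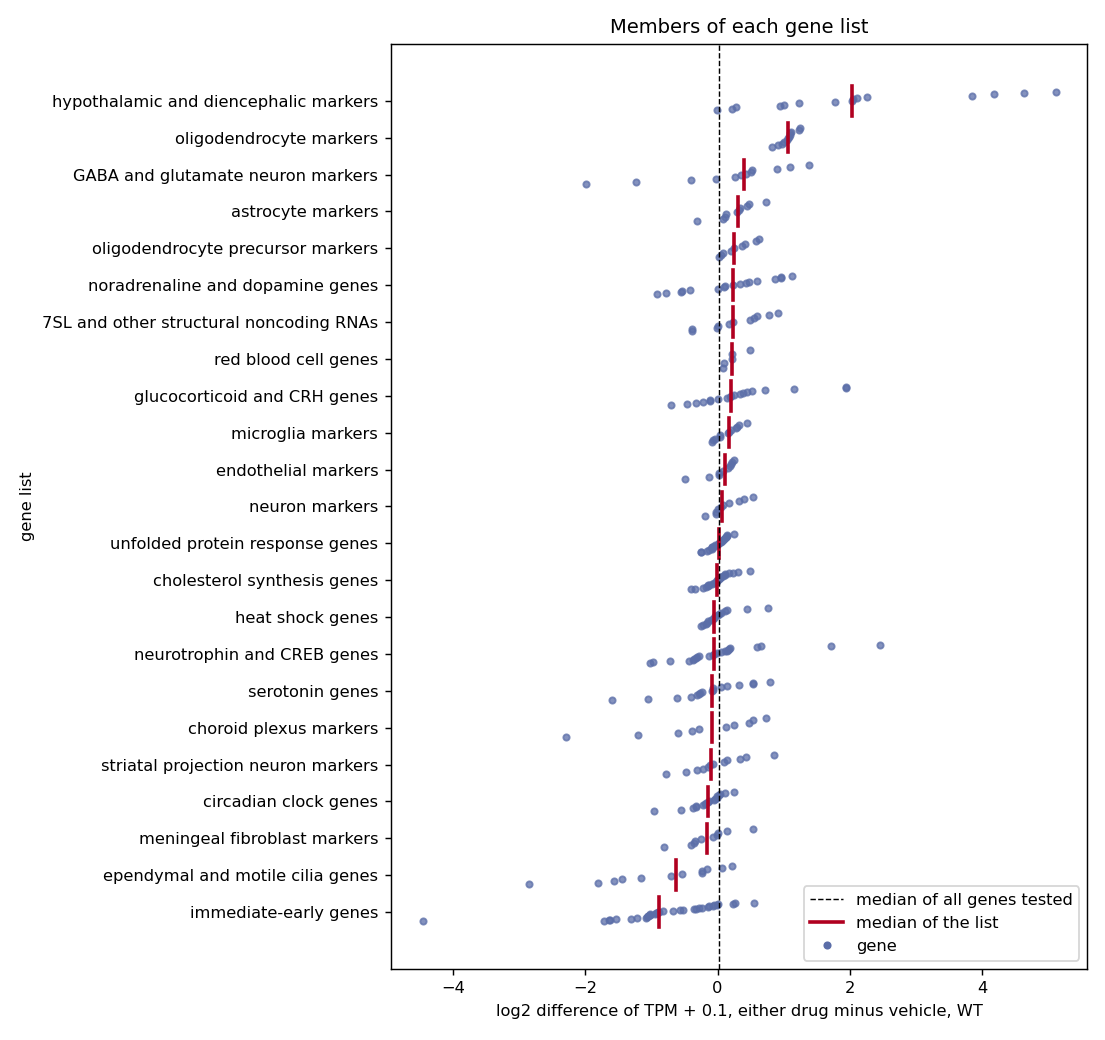
Log2 difference of either drug from vehicle (TPM + 0.1) for every tested member of the 23 gene lists in WT mice, 1 point per gene, with the median of each list (red bar) and of all 25085 genes (dashed line). Immediate-early genes lie lowest with a median of -0.89, and hypothalamic and oligodendrocyte markers lie highest with medians of 2.04 and 1.07.

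Several cell type lists also differed, and their part in the results above was not tested beyond the fit with covariates. That fit did not include the astrocyte, oligodendrocyte precursor or ependymal lists. The shares over all genes were 6.81% higher and 5.13% lower. All 12 oligodendrocyte markers were higher with drug at an unadjusted p under 0.05, with a median log2 difference of 1.07, though only *Mal* was so for each drug. Their summed level ran from 746 to 12167 TPM with vehicle, from 1503 to 12035 with IMN and from 2173 to 9346 with FLX, with medians of 2138, 3639 and 6331 TPM. The groups overlapped, and the number of the 12 with such a p was 3 without vehicle replicate 4, 4 without vehicle replicate 5 and 7 without vehicle replicate 2. Of 15 hypothalamic and diencephalic markers tested 6 were higher, led by *Trh* at medians of 6.14, 10.1 and 42.7 TPM, and the summed level ran from 9.37 to 79.8 TPM with vehicle, from 10.7 to 10603 with IMN and from 35.8 to 4683 with FLX. *Hcrt*, the orexin gene, was listed at 0 in 6 of 8 vehicle libraries and reached 3878 TPM in 1 IMN library. Of 10 astrocyte markers 5 were higher and 1, *Slc1a2*, was lower, led by *Gjb6* at medians of 62.5, 97.8 and 134.6 TPM. The number higher was 2 without vehicle replicate 2, 3 without vehicle replicate 3 or 6, and 1 with the marker covariates. Of 9 oligodendrocyte precursor markers 3 were higher, and of 12 ependymal and motile cilia genes tested 4 were lower, led by *Meig1*, and 2 were without vehicle replicate 2, 5 or 8. Neuron markers (2 higher of 10, led by *Nefm*), microglia (1 of 12, *Siglech*) and GABA and glutamate markers (1 lower of 12, *Npy*) held few, and the striatal (12), endothelial (10), red blood cell (5), choroid plexus (10) and meningeal (10) lists held none at that threshold. With the 4 marker levels as covariates 1410 genes in all had an unadjusted p under 0.05 in place of 2995, 396 did so for each drug in place of 669, and 0 passed the adjusted test.

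The same contrast in *Brd1*+/- mice has its own vehicle group, and there too the codes of vehicle and drug mice did not overlap. *Brd1* in WT mice stood at 35.6 ± 5.09, 36.9 ± 2.83 and 32.9 ± 4.45 TPM with vehicle, IMN and FLX (SD), with a log2 difference of -0.02 ± 0.08 (SE). In *Brd1*+/- mice its means were 25.95, 23.4 and 23.5 TPM, which checks the genotype labels. Of 25791 genes tested in *Brd1*+/- mice 346 were called by limma (1.34%), 343 of them lower with drug, and a test limited to protein-coding genes of several exons called 0. At an unadjusted p under 0.05 there were 8.71%, with 1.59% higher and 7.12% lower. Of the 36 immediate-early genes 2 were higher and 1 lower at an unadjusted p under 0.05, with a median of 0.20. The difference between the genotypes, tested as an interaction, was called for 371 of 27944 genes (1.33%). It had an unadjusted p under 0.05 for 20 of the 36 immediate-early genes, against 15.3% of all genes, and 3 of them were called, namely *Nr4a1*, *Npas4* and *Inhba*. It was under 0.05 for 3 of the 36, with 0 called, when the marker lists were covariates. The interaction reuses the WT libraries, and the list was chosen with earlier results of these data known. The count of 20 is therefore not separate from the lower means in WT drug libraries. None of the 36 was called at a minimum of 1 TPM or with multi-exon protein-coding genes alone. With a pseudocount of 0.01, 1 was called (*Nr4a1*), and so was 1 with a term for high or low codes within each treatment (*Npas4*). That term cannot adjust for the gap between vehicle and drug codes. The oligodendrocyte list had a median of -0.94 in *Brd1*+/- mice and an interaction p under 0.05 for 12 of 12 members, 0 of them called. Those 12 terms reuse the same WT libraries.

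*Npas4* averaged 15.6 ± 6.72 TPM with vehicle, 7.40 with IMN and 7.68 with FLX in WT mice, and in *Brd1*+/- mice it was 8.27 ± 3.94, 7.84 ± 3.91 and 13.1 ± 5.29 TPM with vehicle, IMN and FLX (SD). *Nr4a1* averaged 68.7 ± 22.7 TPM with WT vehicle, and 39.2 ± 17.0, 38.9 ± 10.7 and 53.5 ± 19.4 TPM in the *Brd1*+/- groups in the same order. *Mapre2* averaged 117 ± 46.2 TPM with WT vehicle, against 161 to 182 TPM in the other 5 groups. *Nrg1* averaged 5.62 TPM with WT vehicle, 9.81 with IMN and 10.6 with FLX in WT mice, and 7.41, 6.87 and 7.08 TPM in the *Brd1*+/- groups. The interaction was called for *Nrg1* at -0.98, *Pygm* at -0.92, *Mapre2* at -0.69, *Acot11* at -0.65, *Ntsr2* at -0.74, *Ogdhl* at -0.58, *Npas4* at 1.32 and *Nr4a1* at 1.28 (log2, *Brd1*+/- minus WT), with limma adjusted p-values between 0.0138 and 0.0366. These genes had been chosen for small p-values in WT mice, and the interaction subtracts that same WT difference. The direction, size and p-values of the terms are therefore partly set by the choice. None of these 8 was called at a minimum of 1 TPM, where the adjusted p ran from 0.0601 to 0.0917, or with multi-exon protein-coding genes alone, where it ran from 0.111 to 0.127. With the marker lists as covariates 1 of the 8, *Mapre2*, was called. *Ddit4* had an interaction of -0.35 with a limma adjusted p of 0.429, and its mean in *Brd1*+/- mice was 75.6 ± 22.6 TPM with vehicle, 93.3 ± 22.2 with IMN and 101 ± 31.3 with FLX (SD). Its log2 difference of 0.37 from vehicle in *Brd1*+/- mice had an unadjusted limma p of 0.0269, and the *Brd1*+/- groups overlapped.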

How the data were processed

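Amygdala punches of 48 female mice were sequenced, 8 for each genotype and treatment, and the 24 WT libraries were compared here. The deposited values are TPM: per the labels and the study's methods, the authors prepared TruSeq libraries, aligned reads to GRCm38 with HISAT2 2.1.0 and estimated transcript levels with StringTie 1.3.4. FastQC and Trimmomatic are also named in the submitters' processing notes. Use of strand in counting is not given in the sources used here, so overlapping genes on opposite strands are uncertain. TPM keeps no depth, so precision rests on the spread between mice. The series' design text names other brain regions, and the sample labels, which say amygdala, were followed. All 48 columns were matched to samples, and 0 were left over.

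Genes with at least 0.1 TPM in at least 8 libraries were tested with limma 3.58.1 (R 4.3.3) on log2(TPM + 0.1), which understates changes of low genes, with 3 group means, a trended prior and Benjamini-Hochberg adjustment at 0.05. The contrast was the mean of IMN and FLX minus vehicle, and both drugs share the vehicle libraries. A gene moved alike by both drugs had to pass that test and to have an unadjusted p under 0.05 for each drug in the same direction. Named genes were *Fos* and *Brd1*, up to 12 in each direction by p among those under 0.05 for each drug whose higher group averaged 1 TPM or more, and the member of each list with the smallest p. *Fos* was tested by an exact permutation test. Members, gene lists (23 lists) and rules were chosen with earlier results of these data known. P-values set a difference of means against the spread between these mice, and they cannot address the gap between vehicle and drug codes. The 24 *Brd1*+/- libraries were fitted in the same way, and the interaction came from 1 fit of all 48. Alternatives changed the pseudocount, filter, scaling, prior, grouping, gene class, covariates and libraries. The fits were tested on simulated data. The marker covariates were the mean log2 levels of the striatal, hypothalamic, oligodendrocyte and choroid plexus lists. Leaving out the 3 Ttr-rich libraries was chosen after seeing the data.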

Additional observations from a re-analysis of the deposited data

Results flagged for a closer look

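In 7 of 78 groups of 8 libraries, covering 26 genes, 1 library stood farther from the rest than Dixon's test allows at the 95% level, and chance gives about 1 in 20 such groups. The lowest library was *Fos* in vehicle replicate 3 at 5.79 TPM (the next at 26.4), *Atp5mpl* in FLX replicate 5 at 212.5 TPM (the next at 267.4), *Pygm* in vehicle replicate 2 at 6.64 TPM (the next at 11.8) and *Tbl1xr1* in FLX replicate 1 at 11.15 TPM (the next at 13.5). The highest library was *Tet3* in IMN replicate 1 at 19.1 TPM (the next at 16.9), *Cbll1* in FLX replicate 6 at 15.5 TPM (the next at 13.0) and *AC087559.2* in FLX replicate 4 at 6.50 TPM, with the other 7 FLX libraries listed at 0.

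The difference between drug and vehicle itself differed between *Brd1*+/- and WT mice, by limma's interaction term at an adjusted p under 0.05, for 8 named genes. On the log2 scale, *Brd1*+/- minus WT, it was -0.98 for *Nrg1*, -0.92 for *Pygm*, -0.69 for *Mapre2*, -0.65 for *Acot11*, -0.74 for *Ntsr2*, -0.58 for *Ogdhl*, 1.32 for *Npas4* and 1.28 for *Nr4a1*. At a minimum of 1 TPM, or with multi-exon protein-coding genes alone, 0 of the 8 passed, and with marker covariates 1 did (*Mapre2*). The genes had been chosen for their difference in WT mice, so the direction, size and p-values of these terms are partly set by the choice.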

How the results depend on the processing

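The 0 genes called for either drug, and the 0 moved alike by both, became 1 with a pseudocount of 0.01 (*Gm10344*), 3 in 1 fit of all 48 libraries (*Mapre2*, *Gm10344* and *Nrg1*), 16 without the 3 Ttr-rich libraries and 0 to 8 with 1 library left out. FLX minus IMN went from 0 to 1 without the Ttr-rich libraries and ran from 0 to 2 with 1 library left out. The log2 difference of *Fos* ran from -0.94 to -0.40 with 1 library left out, and passed the exact permutation test without vehicle replicate 3. In *Brd1*+/- mice the 346 calls were 669 with no filter, 31 at a minimum of 1 TPM, 207 with quantile normalization, 567 in 1 fit of all 48 libraries and 0 with multi-exon protein-coding genes alone. The 371 interaction calls were 231 with a pseudocount of 0.01, 29 at a minimum of 1 TPM, 215 with quantile normalization, 2 with multi-exon protein-coding genes alone and 237 with marker covariates. Of 972 values of 25 named genes, 969 kept their direction and side of the unadjusted threshold. The genes other than *Brd1* had been chosen for small p-values in these data, so this was largely set by the choice. Their sizes did change, and that of *Rcan2* ran down to 0.27 from 0.72. The 3 that changed sign were all *Brd1*, at 0.0037 without FLX replicate 4, 0.0070 without vehicle replicate 4 and 0.0010 without vehicle replicate 6 (from -0.083 to 0.0070 with 1 library left out). The log2 difference of *AC087559.2* was -6.29 with a pseudocount of 0.01 and -1.90 with 1, and that of *Gm22300* was -4.92 and -1.04.

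Of the genes with an unadjusted p under 0.05, 57% were higher with drug, 50.8% after median-ratio scaling and 44.6% without vehicle replicate 3. A replicate block gave 0 calls, 2761 genes under 0.05, 21 lower immediate-early genes and 7 higher oligodendrocyte markers. The numbers share no origin in the labels: over 24 pairs the correlation of same-numbered libraries ran from -0.189 to 0.186, and 2 libraries correlated best with their own number. A term for high or low codes within each treatment gave 0 calls and 2361 genes under 0.05. It cannot adjust for the gap between vehicle and drug codes. The cause of each change was not tested. Depth is unknown, so what it limits could not be assessed.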
